A study of Mus musculus with 11 samples.

Results

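The effect of rapamycin given alone on whole mouse stomach was examined in 5 of the 11 arrays of the series. The 3 arrays labelled as rapamycin-treated full stomach were set against the 2 labelled as vehicle control, and 22180 genes were compared, each through the probe set with the highest mean over the 9 whole-stomach arrays. All mice were adult C57Bl/6. Vehicle mice received sunflower oil, rapamycin mice received rapamycin at 0.6 mg per 20 g of mouse for 10 days, and injections were daily into the peritoneum. The solvent of rapamycin, and the sex and exact age of the mice, are unstated in the sources used here. Tamoxifen (5 mg per 20 g of mouse for 3 days, 2 arrays) and rapamycin plus tamoxifen (2 arrays) were used as a separate pair with and without rapamycin, and 1 array each of isolated parietal cells and of the remaining stomach cells served to place the genes. Samples of a group are labelled as biological replicates without saying whether 1 mouse gave each array, so the p-values measure only the spread between these samples.

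Rapamycin binds the immunophilin FKBP12, encoded by Fkbp1a, and this complex inhibits mTORC1, a kinase complex on the lysosome surface that senses amino acids and growth factors. Active mTORC1 promotes protein, lipid and nucleotide synthesis and holds back autophagy. The stomach wall joins glandular mucosa of parietal, chief, mucous and endocrine cells to a squamous forestomach, with resident mast cells, smooth muscle and nerves. Bulk arrays cannot tell fewer cells of a type from less RNA per cell, and this holds for every cell type named here.

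The gland markers matched the labelled tissue in all 5 arrays. Atp4a, the proton pump subunit of parietal cells, lay between 13.17 and 13.32, and Pgc, a pepsinogen of chief cells, lay between 13.87 and 13.97, as log2 expression. Arrays of the same group did not always resemble each other most. Vehicle 1 correlated with rapamycin 3 at r = 0.991 across genes and with vehicle 2 at 0.981. The mean of the 14 measured forestomach squamous genes was 5.13 and 4.72 with vehicle, and 9.35, 8.06 and 5.32 in rapamycin 1, 2 and 3. It was also uneven without rapamycin, at 9.23 and 4.88 in the tamoxifen arrays, and it was 8.69 and 8.89 in the combined arrays. Rapamycin 1 and 2 therefore differed from both vehicle arrays in forestomach transcripts, while rapamycin 3 lay near them. Values from rapamycin 3 alone are given beside some of the results below, and results given without them may also move with this.

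Of the 22180 genes, 11 passed an adjusted p of 0.05 in limma, which is 0.0496% of all genes. With rapamycin 2 were higher (0.00902% of all genes) and 9 lower (0.0406%). The 2 that rose were Chst4 and Per1. The 9 that fell were Atp6v0d2, Mcpt1, Mcpt2, Pla2g4c, St3gal4, Mcpt-ps1, Tpsb2, Lypd8 and Il31ra. The median difference over all genes was -0.02 on the log2 scale with a median standard error of 0.17. Differences of at least 1 log2 unit were seen for 229 genes upward and 59 genes downward. Among those, rapamycin 3 also lay at least 1 above the vehicle mean for 43 of the 229, and at least 1 below it for 52 of the 59. The larger upward differences were thus mostly those of rapamycin 1 and 2, and the downward ones were in all 3 arrays.

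**Figure D1:**
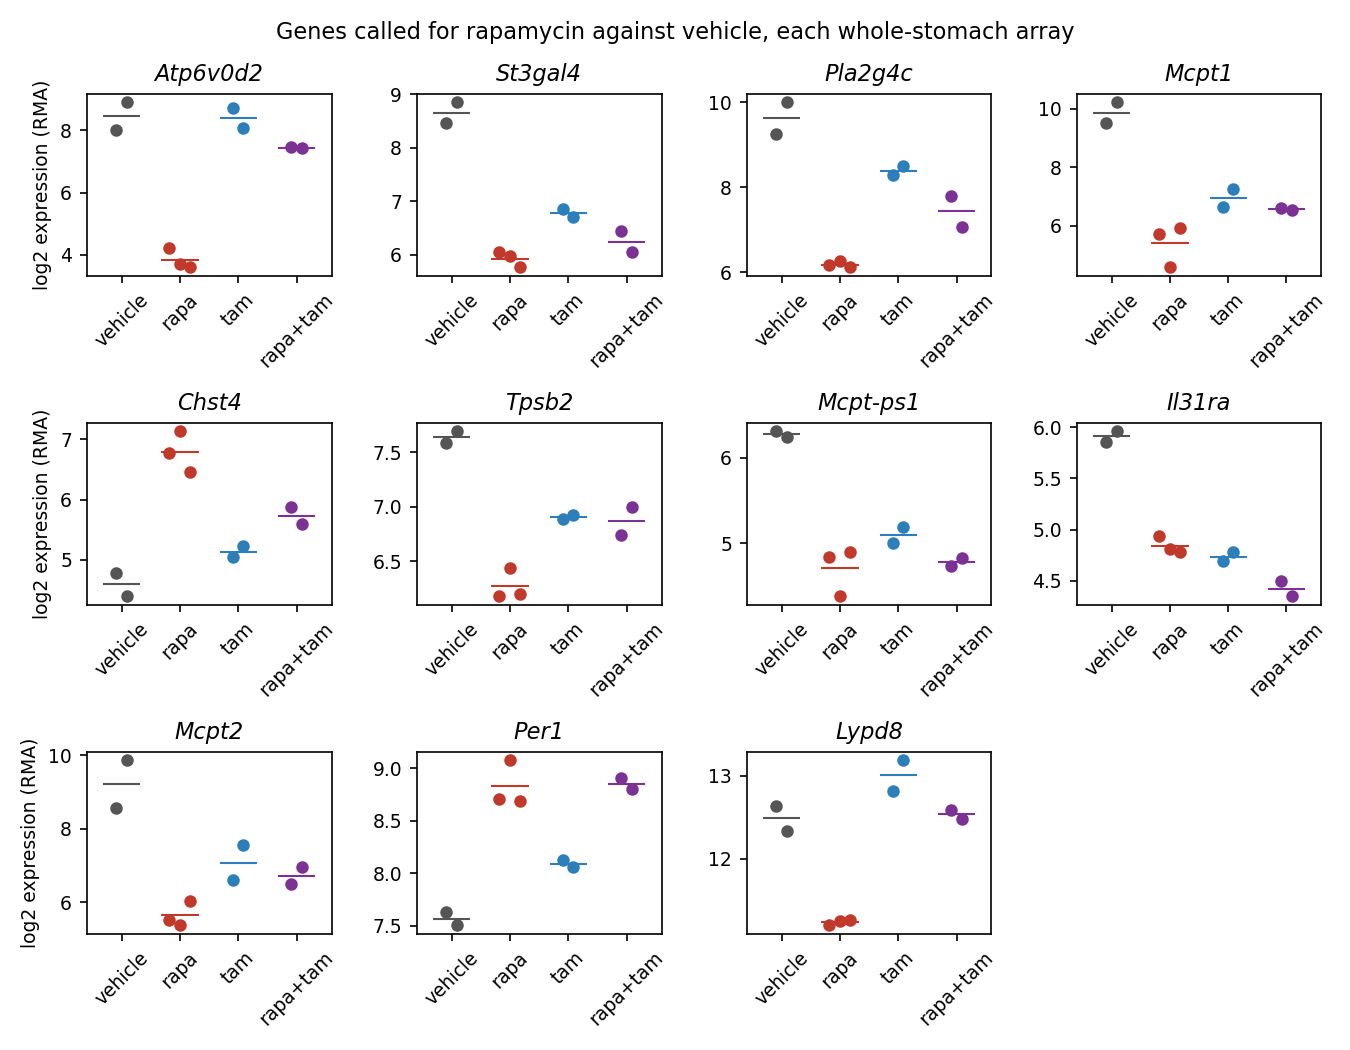
Log2 expression of the 11 called genes in each of the 9 whole-stomach arrays, 1 panel per gene with its own vertical axis, points for arrays and lines for group means (rapa, rapamycin; tam, tamoxifen). In every panel the 3 rapamycin arrays lie wholly on one side of the 2 vehicle arrays, and the combined arrays lie nearer to the tamoxifen arrays than rapamycin does to vehicle.

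The mast cell proteases held 4 of the 9 genes that fell. Mucosal mast cells sit in the epithelium and lamina propria and store chymases and tryptases in their granules. Mcpt1, a granule chymase of mucosal mast cells, was 9.49 and 10.23 in the vehicle arrays and 5.71, 4.58 and 5.91 in the rapamycin arrays. It fell by 4.46 ± 0.39 (SE) on the log2 scale, to a level 22.0-fold under vehicle (adjusted p = 0.00758). Mcpt2, the neighbouring mucosal chymase, was 8.55 and 9.87 with vehicle and 5.51, 5.37 and 6.04 with rapamycin, and fell by 3.57 ± 0.41 (adjusted p = 0.0316). The 2 vehicle arrays were further apart for this gene than the 3 rapamycin arrays. Tpsb2, a tryptase, was 7.59 and 7.70 with vehicle and 6.18, 6.44 and 6.20 with rapamycin, and fell by 1.37 ± 0.14 (adjusted p = 0.018). The pseudogene Mcpt-ps1 was 6.32 and 6.25 with vehicle and 4.84, 4.38 and 4.90 with rapamycin (adjusted p = 0.0251). None of these groups overlapped. Probes of a protease family whose members are alike in sequence may share signal, so the 3 Mcpt values are not fully separate measurements.

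The rest of the mast cell list was uneven. Of its 18 measured members 3 fell and 0 rose at the adjusted threshold, against 0.0406% and 0.00902% of all genes. The list median was -0.31 beside -0.02 for all genes. That median was -0.20 without vehicle 1 and -1.33 with dim genes left out. Rapamycin lay wholly below vehicle for 10 of the 18 and wholly above it for 2, against 14.3% and 12.7% of all genes. Cpa3, the granule carboxypeptidase, was 8.93 and 9.73 with vehicle and 7.43, 7.48 and 7.31 with rapamycin, with a difference of -1.93 ± 0.31 that did not pass (adjusted p = 0.142). The chymase Cma1 had a difference of -1.28. Fcer1a, the binding chain of the IgE receptor, was 3.34 and 4.44 against 2.63, 2.67 and 2.71, and Ms4a2, its beta chain, was 4.90 and 5.85 against 4.20, 4.36 and 4.49. Every Fcer1a value lay below 5.66, the median vehicle mean over all genes. The differences of the 2 chains, -1.22 and -1.03, did not pass and were -0.67 and -0.55 without vehicle 2. In contrast Kit, the receptor for stem cell factor, was 8.80 and 8.55 with vehicle and 8.76, 9.10 and 8.91 with rapamycin, and the groups overlapped. Kit is also made by pacemaker cells of the muscle layer, and Hdc, with a difference of 0.48, by endocrine cells of the gastric mucosa. The connective tissue mast cell chymase Mcpt4 differed by -0.30 ± 0.28. In the separated cells Mcpt1 was 2.86 in parietal cells and 10.13 in the remaining cells, and Mcpt2 was 2.81 and 10.30.

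The RefSeq window (GRCm38.p6) of Mcpt1 is shown as the start of the gene that fell most among the proteases. Of the called proteases only Mcpt1 had a window in the source used, so the promoters of the others were not searched. The window runs from 250 bases before the start to 50 after it, at chr14:56017714-56018013 on the plus strand, and capitals mark a TATAAA. That motif begins 28 bases before the start, and TATAAA on either strand is in 13.6% of all 32851 windows of 300 bases.
Mcpt1: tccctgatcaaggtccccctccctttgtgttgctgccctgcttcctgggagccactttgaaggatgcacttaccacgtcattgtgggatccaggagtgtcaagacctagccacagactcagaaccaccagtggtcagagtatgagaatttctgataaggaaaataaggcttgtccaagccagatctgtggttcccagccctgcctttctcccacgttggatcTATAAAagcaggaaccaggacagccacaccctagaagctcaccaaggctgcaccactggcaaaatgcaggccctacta

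Atp6v0d2 had the greatest fall of the 11. It encodes the d2 subunit of the membrane sector of the vacuolar proton pump, an alternative to the widely expressed d1 subunit, and is best known from osteoclasts and kidney. Its level was 8.0 and 8.92 in the vehicle arrays and 4.21, 3.70 and 3.59 in the rapamycin arrays, a fall of 4.63 ± 0.30 or 24.8-fold (adjusted p = 0.00132). Rapamycin 3 alone gave -4.87. Of the other 23 measured pump subunits 0 passed the adjusted threshold, which is the background where 0.0496% of all genes passed. The median of all 24 was 0.01. Atp6v0d1, the common d subunit, was 9.10 and 9.49 with vehicle and 9.25, 9.11 and 9.11 with rapamycin. Atp6v1g3, with the next lowest value, differed by -0.59 ± 0.23, and Tcirg1, the a3 subunit of lysosomes and osteoclasts, by -0.31. Lysosomal hydrolases and membrane proteins, which share the compartment with the pump, had a median of -0.17 (-0.094 without vehicle 2). Of these 23 genes 19 were below 0, against 53.2% of all genes, and 0 were called, again the background.

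**Figure D2:**
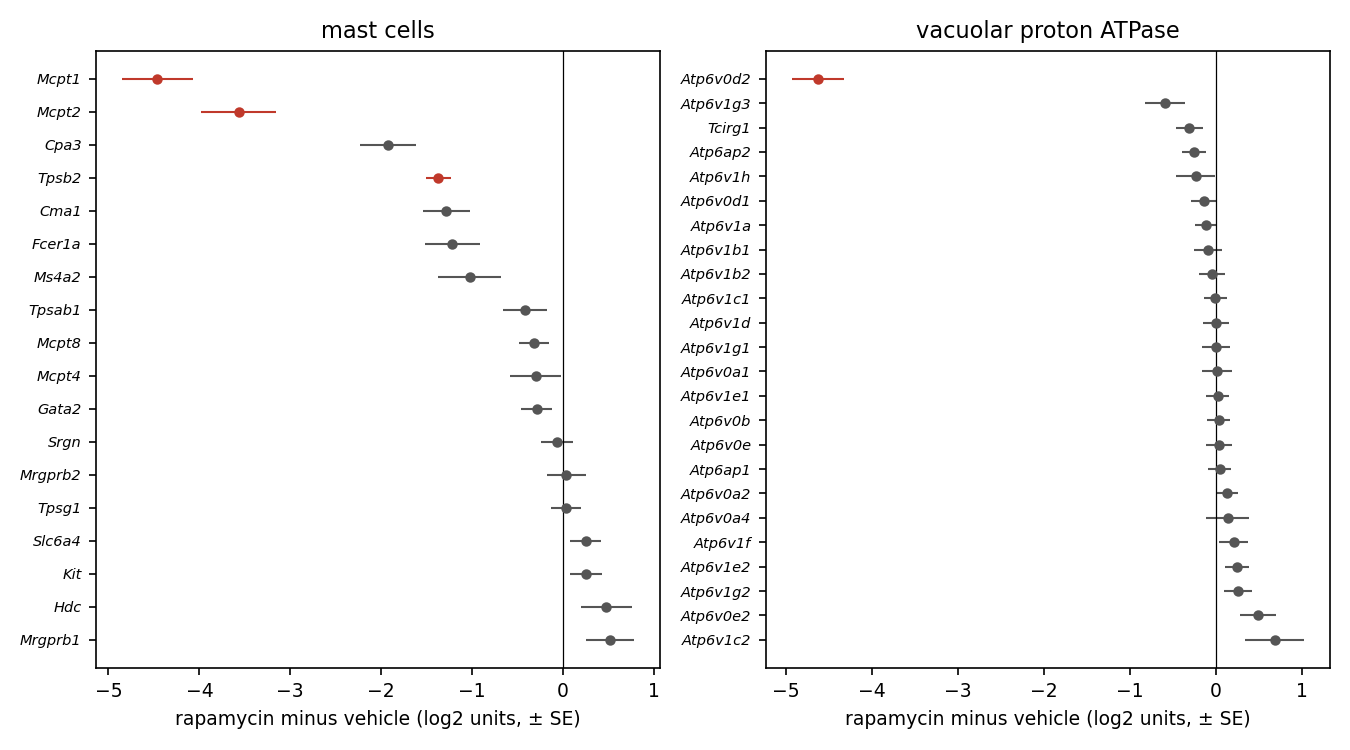
Rapamycin minus vehicle in log2 units with its standard error (horizontal axis) for the 18 measured mast cell genes (left) and the 24 measured subunits of the vacuolar proton pump (right), called genes in red. Mcpt1, Mcpt2, Cpa3, Tpsb2, Cma1 and the IgE receptor chains lie to the left of 0 while Kit does not, and Atp6v0d2 at -4.63 stands alone among pump subunits whose other differences lie between -0.59 and 0.68.

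Several further genes of the mucosal surface separated the groups. St3gal4, a sialyltransferase that caps glycan chains, was 8.46 and 8.86 with vehicle and 6.05, 5.97 and 5.76 with rapamycin, and fell by 2.73 ± 0.18 (adjusted p = 0.0013). Chst4, a sulphotransferase that adds sulphate to N-acetylglucosamine on mucin-type glycans, was 4.79 and 4.39 with vehicle and 6.78, 7.14 and 6.47 with rapamycin, and rose by 2.21 ± 0.21 (adjusted p = 0.0144). The 2 glycan-modifying enzymes thus changed in opposite directions, in every array. The other 19 measured mucin glycosylation genes did not pass, where 0.0496% of all genes did. Over the 21 genes the median was -0.18, or -0.29 when vehicle 1 was left out and -0.074 when vehicle 2 was. B3gnt6, which extends core 3 glycans, differed by -0.50 and C1galt1c1, the chaperone of the core 1 enzyme, by -0.42, or by -0.28 and -0.23 without vehicle 2.

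Pla2g4c, a cytosolic phospholipase that releases fatty acids from membrane phospholipids, was 9.26 and 10.01 with vehicle and 6.16, 6.26 and 6.11 with rapamycin. It fell by 3.46 ± 0.26 (adjusted p = 0.0023). Lypd8, an antibacterial surface protein described in colon epithelium, was 12.64 and 12.34 with vehicle and 11.19, 11.25 and 11.26 with rapamycin, and fell by 1.25 ± 0.15 (adjusted p = 0.0407). Il31ra, a receptor subunit for the itch cytokine IL-31, was 5.86 and 5.97 with vehicle and 4.94, 4.81 and 4.79 with rapamycin, and fell by 1.07 ± 0.12 (adjusted p = 0.0316). Each of these 3 genes had rapamycin values closer to one another than to either vehicle array. Duox2, Pigr and Reg3g were among the 10 lower genes of smallest p that were not called. Duox2, which makes hydrogen peroxide at mucosal surfaces, was 10.14 and 10.83 with vehicle and 8.0, 7.93 and 8.20 with rapamycin (difference -2.44 ± 0.40, adjusted p = 0.147). Pigr, which carries IgA across the epithelium, was 8.08 and 9.53 against 6.94, 6.27 and 6.18 (difference -2.34 ± 0.38, adjusted p = 0.146). Reg3g, an antibacterial lectin, was 5.84 and 5.07 against 3.12, 3.03 and 3.64 (difference -2.19 ± 0.32, adjusted p = 0.0946). Its rapamycin values lay below 5.66, the median vehicle mean over all genes. Duox2 and Pigr, like Mcpt2, were higher in vehicle 2 than in vehicle 1, and without vehicle 2 the difference in Pigr was -1.62.

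Genes of mitosis were lower with rapamycin, whereas the median of DNA replication genes was closer to that of all genes. In either list 0 genes were called, which is the background where 0.0496% of all genes were called. For all 24 measured genes of mitosis and cytokinesis the 3 rapamycin arrays lay below both vehicle arrays, against 14.3% of all genes, and 22 of 24 had an unadjusted p under 0.05, against 4.6% of all genes in that direction. Mki67, the Ki-67 antigen of cycling cells, was 8.98 and 9.70 with vehicle and 8.37, 8.27 and 8.06 with rapamycin, a difference of -1.10 ± 0.26 (adjusted p = 0.316). Cenpe, a kinetochore motor, was 6.80 and 7.17 against 6.06, 6.11 and 5.95. Ccna2, cyclin A2, was 8.48 and 8.30 against 7.79, 7.67 and 7.69, with a difference of -0.68 ± 0.12. Top2a, the topoisomerase that separates sister chromatids, and Birc5, survivin, differed by -0.84 and -0.62. The median over the 24 was -0.57, and -0.65 when only rapamycin 3 was kept. Cks2, Kif20b and Cdkn3, cell division genes among the lower genes of smallest p that were not called, differed by -0.86, -0.78 and -0.85.

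The 23 measured DNA replication genes had a median of -0.10 (-0.053 without vehicle 2), and 0 had an unadjusted p under 0.05. Most leaned the same way as the mitosis genes, with 17 of the 23 below 0, against 53.2% of all genes. Rapamycin lay wholly below vehicle for 7 and wholly above it for 1, against 14.3% and 12.7% of all genes. In the combination against tamoxifen 20 were below 0 and 3 above. Mcm6, a subunit of the replicative helicase, was 7.63 and 7.72 with vehicle and 7.60, 7.72 and 7.62 with rapamycin. Pcna, the sliding clamp, was 9.15 and 9.39 against 9.24, 9.24 and 9.21. The groups overlapped for Mcm6 and Pcna, which were named after their values were seen and do not stand for the list. Tyms, thymidylate synthase, differed by 0.34 ± 0.16 and Rrm2, a ribonucleotide reductase subunit, by -0.22 ± 0.15. The difference between the lists is a description of medians, and it was not tested.

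**Figure D3:**
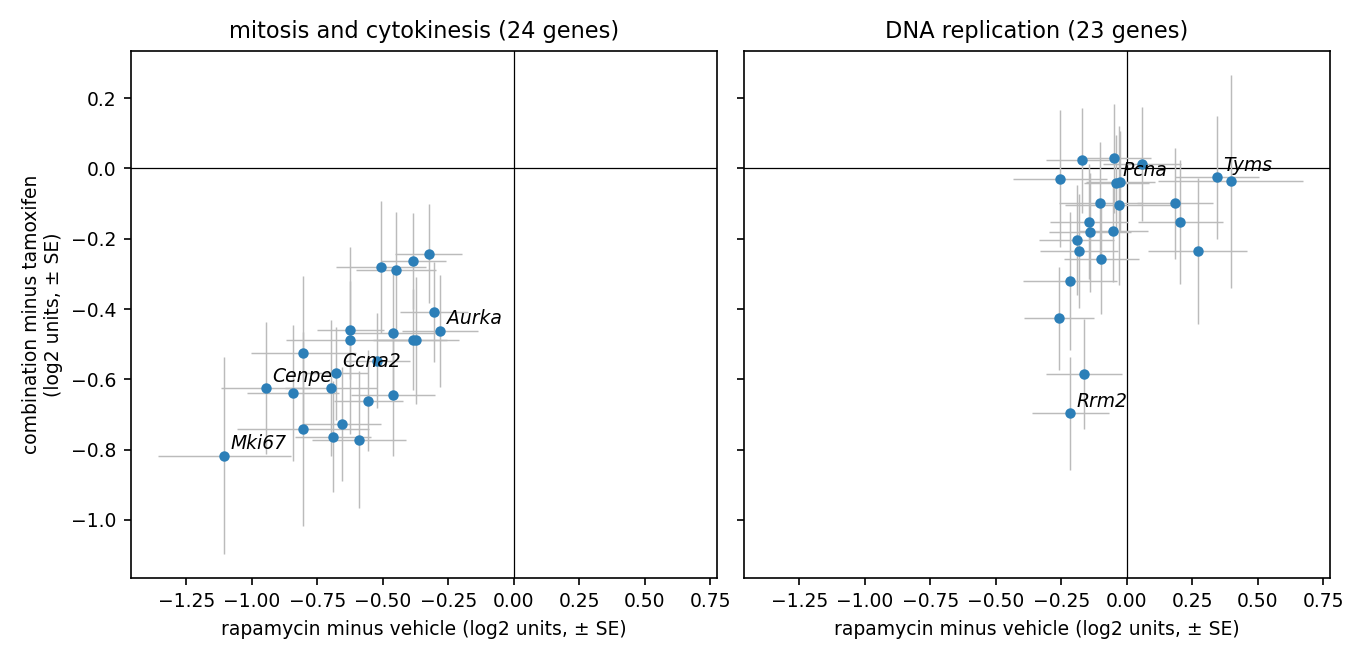
Each point is 1 gene, with rapamycin minus vehicle on the horizontal axis and combination minus tamoxifen, from 4 other arrays, on the vertical axis, both in log2 units with standard errors, for mitosis and cytokinesis (left) and DNA replication (right). All 24 mitosis genes lie below 0 on both axes (medians -0.57 and -0.54), while the replication genes gather closer to 0 (medians -0.10 and -0.15).

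Per1 was the only one of 17 measured clock genes that passed the test, where 0.0496% of all genes passed. Per1 encodes a repressor of the circadian feedback loop and can also be switched on acutely, by glucocorticoids and cyclic AMP among others. Its level was 7.63 and 7.50 in the vehicle arrays and 8.71, 9.08 and 8.69 in the rapamycin arrays, a rise of 1.26 ± 0.15 or 2.39-fold (adjusted p = 0.037). For 4 other clock genes the vehicle arrays themselves were far apart. Dbp, an output factor of the clock, was 7.43 in vehicle 1 and 9.32 in vehicle 2, with rapamycin between them at 8.01, 8.06 and 7.68. Arntl, the activator BMAL1, ran the other way, at 8.79 and 7.58, with rapamycin at 8.50, 8.56 and 8.54. Per3 was 5.33 and 6.80, and Nr1d2, the repressor REV-ERB beta, was 6.68 and 8.17. The vehicle arrays therefore differed by more than 1 log2 unit in each of these 4 genes, in opposite directions for Arntl and the others, while their Per1 levels differed little. The same was true in lesser degree of the tamoxifen arrays, where Nr1d2 was 6.60 and 7.74. The sources used here do not state the times of day at which stomachs were taken, and their part in the Per1 result was not tested. Clock and Npas2, which partner BMAL1, differed by 0.37 ± 0.13 and 0.46 ± 0.17 with no overlap and did not pass. With rapamycin 3 alone they differed by 0.21 and 0.39.

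**Figure D4:**
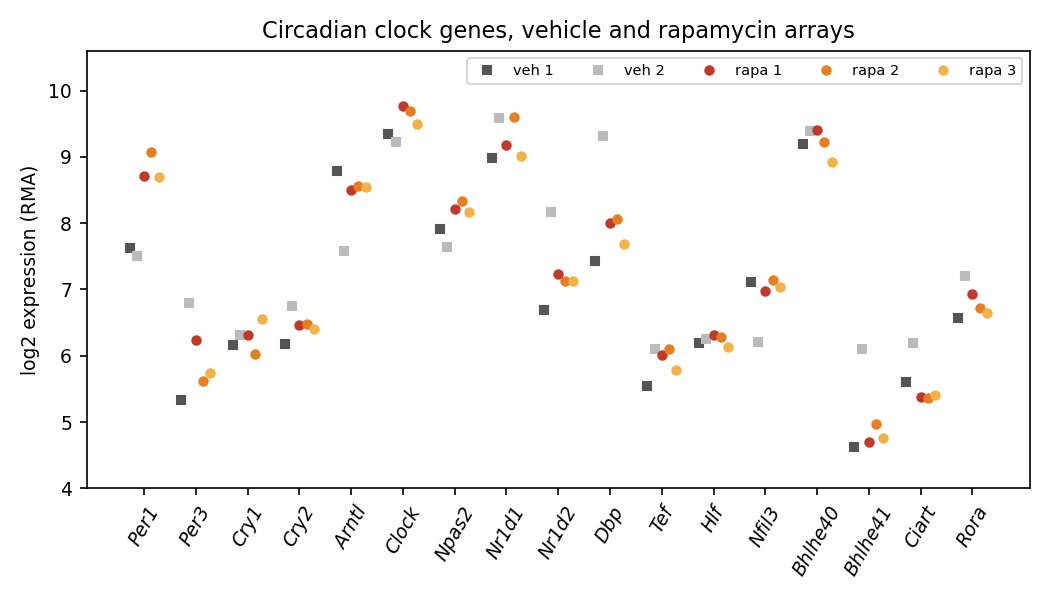
Log2 expression (vertical axis) of the 17 measured circadian clock genes in the 2 vehicle arrays (squares) and 3 rapamycin arrays (circles). Per1 is higher in all 3 rapamycin arrays, while for Dbp, Nr1d2, Per3 and Arntl the vehicle arrays are the furthest apart and the rapamycin arrays lie between them.

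The first of 2 RefSeq windows of Per1 (GRCm38.p6, chr11:69098699-69098998, plus strand, 250 bases before to 50 after the start) is shown because Per1 was the called clock gene, and it holds the clock motif. Capitals mark the E-box CACGTG, whose first base is 166 bases before the start and which is found in 7.15% of the 32851 windows. The other Per1 window, at chr11:69099902-69100201, holds no CACGTG. The cAMP response element TGACGTCA, searched on both strands and present in 1.79% of windows, was in neither Per1 window.
Per1: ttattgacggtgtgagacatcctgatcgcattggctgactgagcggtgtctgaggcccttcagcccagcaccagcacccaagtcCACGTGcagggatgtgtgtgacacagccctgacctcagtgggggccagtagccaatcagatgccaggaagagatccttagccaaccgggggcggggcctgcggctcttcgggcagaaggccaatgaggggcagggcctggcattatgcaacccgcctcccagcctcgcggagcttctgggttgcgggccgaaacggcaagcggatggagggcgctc

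Per1 also belongs to the list of glucocorticoid-responsive genes, of which it was the only called member. Rapamycin lay wholly above vehicle for 7 of the 14 measured genes, against 12.7% of all genes, and the median was 0.32. Of the 14 genes 9 were above 0 and 5 below, against 46.8% and 53.2% of all genes. In the combination against tamoxifen the list median was 0.07. Cdkn1a, the cell cycle inhibitor p21, was 11.13 and 10.95 with vehicle and 11.65, 11.48 and 11.50 with rapamycin, a difference of 0.50 ± 0.12. Zbtb16 differed by 0.52 and Dusp1, a phosphatase that silences MAP kinases, by 0.87, or by 0.42 and 0.43 with rapamycin 3 alone. Fkbp5, a classic glucocorticoid target that like Fkbp1a encodes an immunophilin, differed by 0.14 ± 0.12.

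Among the higher genes that were not called, Scd1 of fatty acid synthesis had the smallest p. Scd1, which puts the double bond into stearic and palmitic acid, was 7.16 and 6.26 in the vehicle arrays and 10.71, 10.30 and 9.48 in the rapamycin arrays. Its difference was 3.45 ± 0.46 (adjusted p = 0.0678). Thrsp, a regulator of lipogenesis, was 5.46 and 5.32 against 8.36, 7.89 and 6.95, with a difference of 2.35 ± 0.36 (adjusted p = 0.123). Both genes ran in the same order over the rapamycin arrays as the squamous genes, highest in rapamycin 1 and lowest in rapamycin 3, and both stayed above vehicle in rapamycin 3. Pnpla3, a lipid droplet protein, differed by 1.34 and Mlxipl, the carbohydrate-sensing factor ChREBP, by 0.87. With rapamycin 3 alone these differences were 0.73 and 0.57. Fasn, fatty acid synthase, was 9.50 and 10.06 against 10.49, 10.30 and 9.77, and the groups overlapped. Me1, malic enzyme, which supplies NADPH for the pathway, differed in the other direction, at 10.96 and 11.96 against 10.32, 9.98 and 10.26 (difference -1.27 ± 0.29). The 17 measured genes had a median of 0.25, or 0.39 without rapamycin 3 and 0.03 with rapamycin 3 alone. In the combination against tamoxifen their median was -0.35, and Scd1 was 8.06 and 7.28 with tamoxifen and 8.0 and 6.92 with the combination.

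Of the 14 measured adipose markers 10 were above 0 and 4 below, and 0 were called, where 0.0496% of all genes were. Rapamycin lay wholly above vehicle for 9 and wholly below it for 1, against 12.7% and 14.3% of all genes. Their mean level was 6.80 and 6.62 with vehicle and 7.73, 7.76 and 7.27 with rapamycin. The markers with the greatest differences were Car3, Retn and Adipoq. Car3, carbonic anhydrase 3, was 6.04 and 5.76 against 10.37, 10.16 and 8.44. Retn, the adipocyte hormone resistin, was 5.79 and 5.17 against 8.53, 8.74 and 7.12, and Adipoq, adiponectin, was 4.93 and 3.85 against 6.89, 7.52 and 6.38. These 3 genes stood above vehicle in each rapamycin array and were lower in rapamycin 3 than in the other two. The median of the 14 measured adipose genes was 0.41 (0.26 with rapamycin 3 alone), with 7 of 14 higher at an unadjusted p under 0.05 against 4.31% of all genes. With the squamous mean as a covariate the differences were 2.81 for Scd1 and 1.70 for Thrsp, beside 3.45 and 2.35 without it. Scd1 was 7.16 and 6.26 in vehicle 1 and 2, with squamous means of 5.13 and 4.72 and adipose means of 6.80 and 6.62. In tamoxifen 1 and 2 it was 8.06 and 7.28, with squamous means of 9.23 and 4.88 and adipose means of 7.08 and 6.56. In combined arrays 1 and 2 Scd1 was 8.0 and 6.92, with squamous means of 8.69 and 8.89 and adipose means of 7.36 and 6.70. Whether Scd1 followed the squamous or the adipose genes over these arrays was not tested. Scd1 and Thrsp are also expressed in fat, and the part of the adipose markers in their values was not tested.

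**Figure D5:**
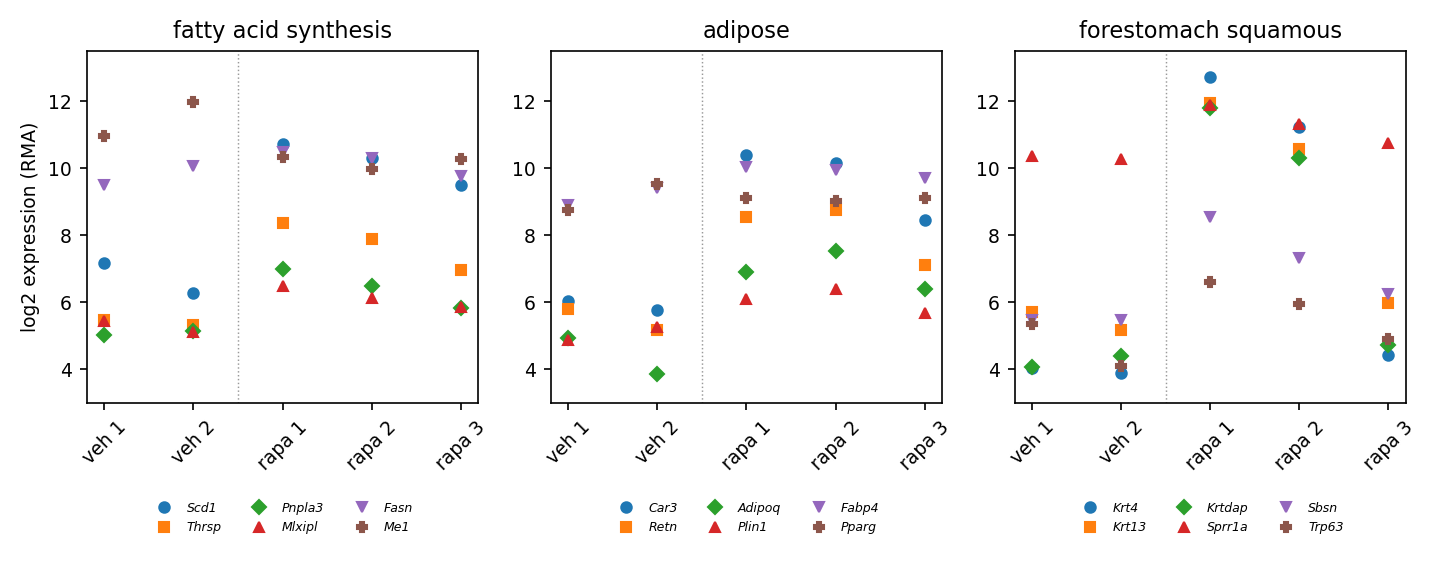
Log2 expression (vertical axis) in the 2 vehicle and 3 rapamycin arrays for 6 genes each of fatty acid synthesis, adipose tissue and forestomach squamous epithelium, chosen for the plot after their values were seen. Scd1, Thrsp, Car3, Retn and Adipoq are above vehicle in all 3 rapamycin arrays, and the squamous genes Krt4, Krt13 and Krtdap are, of these 5 arrays, high in rapamycin 1 and 2.

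Of 36 measured mTORC1 components and brakes 0 were called, where 0.0496% of all genes were, so a count of 0 in a list of this size is the background. The median was -0.06. Mtor was 8.96 and 9.05 with vehicle and 8.79, 9.11 and 8.76 with rapamycin. Castor1, an arginine sensor that restrains mTORC1, was the only member at an unadjusted p under 0.05, at 6.22 and 5.65 against 6.69, 6.81 and 6.73 (difference 0.81 ± 0.18, adjusted p = 0.291). Fkbp1a, which encodes the receptor protein of rapamycin, differed by 0.19. Lists for processes downstream of mTORC1 also held 0 called genes, again the background. The median was -0.09 for 24 cytosolic ribosomal proteins, -0.05 for 23 ribosome biogenesis genes, 0.01 for 25 core autophagy genes and -0.07 for 25 genes of ATF4 and amino acid supply. The ribosomal protein median rested on the vehicle arrays, at -0.34 without vehicle 1 and 0.17 without vehicle 2, and so did that of ribosome biogenesis, at -0.14 and 0.046. Array levels are relative within each array and cannot show a change in total RNA, and mTORC1 acts largely on proteins, which were not measured.

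Single genes within these lists departed from the median without passing. Myc, a driver of ribosome production, was 8.56 and 8.12 with vehicle and 8.92, 9.12 and 8.95 with rapamycin (difference 0.66 ± 0.21). Irs2, an insulin receptor substrate that FoxO factors induce, was 7.57 and 7.53 against 8.15, 8.19 and 8.06, while Insr, the insulin receptor, differed by -0.31. Hif1a, the hypoxia factor, was 8.62 and 8.48 against 8.10, 8.09 and 8.04, and the glycolytic activator Pfkfb3 was higher, at 6.50 and 6.53 against 7.06, 7.36 and 7.04. Wipi1 and Atg12, early autophagy proteins, differed by -0.45 and 0.33. The 20 measured genes of sterol synthesis and uptake had a median of -0.32, which rested on the vehicle arrays: it was -0.03 without vehicle 2 and -0.67 without vehicle 1. Among detoxification genes Cyp2b10 differed by 1.29 and Cyp2c55 by 0.99, each with no overlap between groups.

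Rapamycin lay wholly below vehicle for 8 of the 15 measured interferon-stimulated genes, against 14.3% of all genes. The median was -0.44, with 0 called, where 0.0496% of all genes were. Ddx60, an RNA sensor cofactor, was 5.65 and 5.87 with vehicle and 4.67, 4.58 and 4.23 with rapamycin. Oasl2, an antiviral oligoadenylate synthase-like protein, was 7.63 and 7.18 against 6.57, 6.35 and 6.17. Irf7, the factor that amplifies the response, was 6.88 and 6.99 against 6.22, 6.31 and 5.31. In the combination against tamoxifen the list median was 0.06. Of 15 measured type 2 cytokines and receptors, Il31ra was the 1 called, where 0.0496% of all genes were. Rapamycin lay wholly below vehicle for 6 of the 15 and wholly above it for 0, against 14.3% and 12.7% of all genes. Their median was -0.17, or -0.014 with dim genes left out, which kept 3 above 0 and 3 below. Tslp, an epithelial alarm cytokine, differed by -0.72 ± 0.20 and Il9, a mast cell growth factor, by -0.46 ± 0.15, both with no overlap. With rapamycin 3 alone they differed by -0.44 and -0.31.

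Other immune lists held 0 called genes, which is the background where 0.0496% of all genes were called. The median was -0.05 for 17 T cell and cytotoxic genes and 0.00 for 15 macrophage and monocyte genes. For 11 dendritic cell and MHC class II genes it was -0.12, or 0.20 without vehicle 1, with 5 above 0 and 6 below. Thy1, a surface protein of T cells, nerves and fibroblasts, differed by 0.71 ± 0.16, and Gzmb, a cytotoxic granule protease, by -0.78 ± 0.30. The 13 B and plasma cell genes had a median of -0.05, with 5 above 0 and 8 below, and ran from -1.31 for Jchain, the joining chain of IgA, to 1.39 for Derl3, a protein of the endoplasmic reticulum. The 11 neutrophil and eosinophil genes had a median of -0.037, with 4 above 0 and 7 below. Their lowest was Retnlg, a neutrophil product, at 3.42 and 3.77 against 2.56, 2.49 and 2.28, all below the median vehicle mean of 5.66 over all genes. Their highest, S100a9, a calcium-binding protein of neutrophils, differed by 0.69, or by 0.10 with the squamous mean as a covariate.

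The parietal, chief, pit and neck lists of gastric epithelium held 0 called genes, which is the background where 0.0496% of all genes were called. The medians were 0.03 for 15 parietal genes, -0.04 for 10 chief genes, -0.04 for 10 pit genes and 0.04 for 9 neck and metaplasia genes. Single chief genes ran from -0.80 to 1.07. Rapamycin lay wholly above vehicle for 5 of the 15 parietal genes and wholly below it for 1, against 12.7% and 14.3% of all genes. Slc26a7 and Kcnq1, an anion exchanger and a potassium channel of acid secretion, differed by 0.59 and 0.47 with no overlap. Muc6, the neck cell mucin, was 12.18 and 12.82 with vehicle and 11.95, 11.59 and 11.81 with rapamycin. Endocrine genes had a median of 0.40, which was 0.10 without vehicle 2 and 0.27 with rapamycin 3 alone. Ghrl, the hormone ghrelin, was 12.57 and 12.00 against 12.78, 12.92 and 12.73, whereas Tph1, which makes serotonin in endocrine and mast cells, was lower at 6.56 and 5.81 against 5.15, 4.99 and 5.33.

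All 12 measured smooth muscle genes were above 0, against 46.8% of all genes, with a median of 0.28, and rapamycin lay wholly above vehicle for 10 of the 12, against 12.7% of all genes. Kcnmb1, a potassium channel subunit of smooth muscle, differed by 0.81 and Lmod1, an actin nucleator, by 0.53. In the combination against tamoxifen 11 of the 12 were below 0. The 12 fibroblast and matrix genes had a median of -0.19, with 9 below 0, which was -0.55 without vehicle 1 and -0.016 without vehicle 2. Rapamycin lay wholly below vehicle for 4 of them and wholly above it for 2, against 14.3% and 12.7% of all genes. The 2 were Dcn and Lum, small matrix proteoglycans that differed by 0.80 and 0.84. Col1a1, the main fibrillar collagen, differed by -0.54. How much of each wall layer entered the RNA was not measured, and its part in these values was not tested.

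The same drug was also compared in mice that received tamoxifen. The group means of that comparison come from 4 other arrays, which entered the comparison of rapamycin with vehicle only through the shared estimate of spread. In the combination against tamoxifen 0 genes passed the adjusted threshold in limma (1257 genes, or 5.67%, had an unadjusted p under 0.05), and the lowest adjusted p was 0.423. All 11 genes called for rapamycin alone had the same sign there and a smaller difference, and 7 of the 11 had an unadjusted p under 0.05. A smaller difference is what choosing the 11 for their extreme values in the first comparison favours, so it is given as a description. Over all genes 68.0% had the same sign in both comparisons, and of the 1977 genes at an unadjusted p under 0.05 for rapamycin alone 80.0% did. The 2 comparisons are not wholly separate, because vehicle 2 and tamoxifen 2 deviated from their groups alike (r = 0.56 across genes). Atp6v0d2 was 8.71 and 8.08 with tamoxifen and 7.46 and 7.42 with the combination, a difference of -0.95 beside -4.63 without tamoxifen. Pla2g4c differed by -0.96 beside -3.46 and Per1 by 0.76 beside 1.26.

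For other genes the tamoxifen arrays were already away from vehicle. Mcpt1 was 6.64 and 7.25 with tamoxifen and 6.60 and 6.53 with the combination, all below both vehicle arrays. St3gal4 was 6.86 and 6.70 with tamoxifen and 6.44 and 6.04 with the combination. Il31ra was 4.69 and 4.78 with tamoxifen and 4.49 and 4.35 with the combination. The difference of the rapamycin effect with and without tamoxifen was tested directly, and 0 genes passed in limma (627 genes, or 2.83%, had an unadjusted p under 0.05, and the lowest adjusted p was 0.223). Atp6v0d2 and St3gal4 were at that lowest value, and 10 of the 11 called genes, chosen on a contrast that is part of this difference, had an unadjusted p under 0.05. The smaller differences under tamoxifen did not pass correction for any gene. Among the mitosis genes, whose median was -0.54 in this comparison and -0.57 without tamoxifen, Mki67 was 9.81 and 10.46 with tamoxifen and 9.48 and 9.16 with the combination.

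The number of called genes rested on few arrays. With 1 array left out it was 10 without vehicle 1, 3 without vehicle 2, 4 without rapamycin 1, 7 without rapamycin 2, 6 without rapamycin 3, 20 without either tamoxifen array and 6 without either combined array. Atp6v0d2, St3gal4 and Pla2g4c were called in all 9 of these fits and Mcpt1 in 8, failing without vehicle 2 (adjusted p = 0.137). Chst4 was called in 7 of 9, Tpsb2 in 5, Mcpt2 and Mcpt-ps1 in 3, and Il31ra, Per1 and Lypd8 in 2, those without a tamoxifen array. All 11 kept their sign in each fit. Without either tamoxifen array Scd1, Cpa3, Duox2 and Reg3g passed as well (adjusted p = 0.0436, 0.0301, 0.0241 and 0.0312). Pigr passed without vehicle 1 (0.0128), Thrsp without rapamycin 3 (0.0168), and Scd1 also with median centring and with dim genes left out. With rapamycin 3 alone against vehicle the differences were -2.89 for St3gal4, -3.52 for Pla2g4c, -3.95 for Mcpt1, 1.88 for Chst4, 1.12 for Per1 and -1.23 for Lypd8, and 0 genes were called.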

How the data were processed

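The authors deposited log2 expression values per probe set of an Affymetrix gene-level array, made with RMA in Partek per the submitters' processing notes; their versions and settings are unstated in the sources used here. Probe sets naming several genes (1814) or none (16010) were left out. The 22180 genes were tested with limma 3.58.1 (R 4.3.3), fitting 1 mean for each of 4 whole-stomach groups with a common spread on 5 residual degrees of freedom (3.86 prior). P-values were adjusted by Benjamini-Hochberg over all genes, and called means an adjusted p under 0.05. The script was tested on simulated data. Errors are limma standard errors. Fraction arrays had no replicates, were compared only with each other and had no test. The number of arrays limits the precision.

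Members and the 47 gene lists (735 of 805 entries measured) were chosen with earlier results of these data known. Named genes were all called genes, the 10 uncalled genes of smallest p in each direction without overlap, 4 members of smallest p per list, and members of the mTORC1, proton pump, mast cell and clock lists. Named besides, after their values were seen, were Atp4a, Pgc, Mcm6, Pcna, Fasn, Mlxipl, Fkbp5, and the plotted adipose and squamous genes. Alternatives were another normalization, median centring, a filter on dim genes, the mean of probe sets, a trended robust fit, only the compared groups, the replicate number as a block, a squamous covariate and leaving out arrays. Promoter windows are from RefSeq GRCm38.p6; 7 of the 11 called genes had one.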

Additional observations from a re-analysis of the deposited data

How the results depend on the processing

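The 11 genes called for rapamycin against vehicle became 7 when only the 5 arrays compared were fitted, 4 with the squamous mean as a covariate and 0 when rapamycin 1 and 2 were left out together (693 at an unadjusted p under 0.05). Leaving out 1 array gave from 3 to 20. Quantile normalization gave 9, median centring 12, the filter on dim genes 12, the trended robust fit 12 and the mean of probe sets 11. The combination against tamoxifen had from 0 to 1 called gene when 1 array was left out, and 0 under the other alternatives. The test of the difference with and without tamoxifen had 0 throughout, except 1 with the replicate block. The labels share replicate numbers, but same-numbered arrays did not deviate together throughout (r from -0.11 to 0.56), so the numbers were not taken as pairs. With the replicate number as a block 8 genes were called for rapamycin, and rapamycin 3, whose number no other group has, adds nothing to that estimate. Genes whose groups overlapped changed sign when a vehicle array was left out: the differences ran from -1.40 to 0.49 for Dbp, -1.01 to 0.48 for Nr1d2, -0.93 to 0.53 for Per3, -0.26 to 0.95 for Arntl, -0.33 to 0.058 for Atp6v0d1, -0.16 to 0.083 for Pcna, -0.072 to 0.021 for Mcm6, -0.039 to 0.086 for Atp4a and -0.021 to 0.077 for Pgc. Signs also turned for Nr1d2 (0.12), Mcm6 (0.054) and Pgc (-0.0079) with the squamous covariate, Atp4a (-0.034) and Pgc (-0.029) with median centring, Atp4a (-0.025) and Fasn (-0.012) with rapamycin 3 alone, and Pcna (0.013) with quantile normalization. The other genes named kept their sign in every alternative run. With 2 vehicle arrays, differences near the median standard error of 0.17 cannot be told from 0.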
